A study of Mus musculus with 9 samples.

Results

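The proteasome subunit genes were described in spermatogonia of the newborn mouse testis. Members were all genes of the deposited table whose symbol is Psma, Psmb, Psmc, Psmd, Psme, Psmf or Psmg followed by a number, and symbols found on more than 1 entry were to be left out, which removed none of them. This gave 48 genes of 23813 table entries: 19 core genes (8 Psma and 11 Psmb), 20 regulatory genes (6 Psmc and 14 Psmd) and 9 activator or assembly genes (4 Psme, 1 Psmf and 4 Psmg). RNA sequencing was available for 9 libraries of germ cells from male pups of the LT-11B6 line, which carries an Id4-eGfp transgene on a C57BL/6 background, at postnatal day 6. All groups therefore share the transgene, the strain and the age, and a cell was included by the green fluorescence of the Id4 reporter. The first group of 3 libraries was made from ID4-EGFP+ cells as a whole (all ID4-EGFP+). For the other two groups, ID4-EGFP+ cells were stained for the surface tetraspanin TSPAN8, and the brightest 1/3 (TSPAN8-high, 3 libraries) or the weakest 1/3 of the positive cells (TSPAN8-low, 3 libraries) was kept. The sources used here do not say whether pups were pooled or litters differed between preparations. A p-value therefore sets a difference between groups only against the spread between libraries of the same group, and what that spread holds is unknown.

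The proteasome is the barrel-shaped protease that degrades proteins tagged with ubiquitin. Its core is a stack of outer rings of alpha subunits (Psma genes) and inner rings of beta subunits (Psmb genes), of which a few beta subunits cut peptide bonds. A regulatory particle of ATPases (Psmc genes) and non-ATPase subunits (Psmd genes) caps the core, binds and unfolds ubiquitin-tagged proteins and feeds them into the barrel. Other caps (Psme genes), an inhibitor (Psmf1) and assembly factors (Psmg genes) act on the same core. Vertebrates also have alternative beta subunits that interferon induces (Psmb8, Psmb9 and Psmb10), one of the thymus (Psmb11), and an alternative alpha subunit of male germ cells (Psma8). Protein turnover by the proteasome is needed in male germ cells, and the cap protein Psme4 and the subunit Psma8 are known for roles in later spermatogenesis.

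Promoter sequences were taken from RefSeq (GRCm38.p6), as the 250 bases before the first listed start of each gene. An entry was found for 40 of the 48 members, and Psma8, Psmb1, Psmb2, Psmb7, Psmc3, Psmd3, Psmd7 and Psmg2 had none. 7 short patterns known from promoters of this kind were searched on both strands, and none of the patterns contains another. They were the element of the proteasome regulator NFE2L1 (TGACNNNGC), the CCAAT box (CCAAT), the GC box (GGGCGG), the core of ETS sites (CCGGAAG), an interferon element (GAAANNGAA), a STAT element (TTCNNNGAA) and the element of the factor NRF1 (GCGCNTGCG). A match is a description of the letters and shows neither binding nor a cause.

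The stretch between the starts of Psmb9 and of Tap1, a peptide transporter gene of antigen presentation that lies head to head with it, is shown because Psmb9 is the immune subunit that passed the test between the fractions with the replicate block described below. Its 225 bases lie at chr17:34187331-34187555 and are given on the minus strand, as Psmb9 is read. Capitals mark a GC box and, near the end next to Psmb9, a CCAAT box.
Psmb9-Tap1: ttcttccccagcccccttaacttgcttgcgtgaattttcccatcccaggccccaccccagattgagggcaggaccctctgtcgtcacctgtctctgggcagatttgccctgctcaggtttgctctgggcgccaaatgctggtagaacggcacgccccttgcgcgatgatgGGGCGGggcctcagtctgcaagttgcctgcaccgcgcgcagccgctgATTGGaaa
Next are the promoters of its counterpart Psmb6 (chr11:70525107-70525356, plus strand), of the catalytic gene Psmb5 (chr14:54617996-54618245, minus strand) and of Psmb8, the immune counterpart of Psmb5 (chr17:34197945-34198194, plus strand). They are shown to set both constitutive genes beside one of their alternatives. Capitals mark the NFE2L1 element in Psmb6 and Psmb5, and the STAT element in Psmb8.
Psmb6: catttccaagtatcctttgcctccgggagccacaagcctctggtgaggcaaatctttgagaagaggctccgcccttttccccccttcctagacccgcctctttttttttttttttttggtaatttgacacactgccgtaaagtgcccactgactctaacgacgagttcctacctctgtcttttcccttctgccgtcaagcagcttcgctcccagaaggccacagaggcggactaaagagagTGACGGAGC
Psmb5: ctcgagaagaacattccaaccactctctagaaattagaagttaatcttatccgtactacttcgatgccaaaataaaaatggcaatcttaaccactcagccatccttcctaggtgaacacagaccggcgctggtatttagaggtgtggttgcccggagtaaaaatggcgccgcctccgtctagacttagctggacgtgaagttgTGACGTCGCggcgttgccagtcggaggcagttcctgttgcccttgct
Psmb8: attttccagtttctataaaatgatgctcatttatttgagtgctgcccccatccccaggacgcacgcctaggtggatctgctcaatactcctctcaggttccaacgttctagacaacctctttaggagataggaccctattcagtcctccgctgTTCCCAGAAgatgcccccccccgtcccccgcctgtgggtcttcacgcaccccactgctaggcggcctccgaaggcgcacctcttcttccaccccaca
The promoters of Psmb3 (chr11:97703184-97703433, plus strand) and Psmd10 (chrX:140956712-140956961, minus strand) belong to the members that were lower in TSPAN8-high in the same fit. Capitals mark CCAAT boxes in both genes, an interferon element in Psmb3 and a GC box in Psmd10.
Psmb3: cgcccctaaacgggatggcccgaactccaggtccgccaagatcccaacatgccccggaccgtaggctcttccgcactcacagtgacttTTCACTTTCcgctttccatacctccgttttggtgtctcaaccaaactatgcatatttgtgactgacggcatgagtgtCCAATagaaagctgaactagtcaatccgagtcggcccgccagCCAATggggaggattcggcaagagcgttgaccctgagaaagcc
Psmd10: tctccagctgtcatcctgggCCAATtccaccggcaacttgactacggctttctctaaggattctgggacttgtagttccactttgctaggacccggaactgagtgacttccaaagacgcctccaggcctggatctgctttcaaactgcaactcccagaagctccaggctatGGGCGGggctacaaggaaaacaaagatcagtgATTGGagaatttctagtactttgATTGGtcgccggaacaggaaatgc
Psmc1 (chr12:100109952-100110201, plus strand), the highest ATPase gene, and Psmd2 (chr16:20651402-20651651, plus strand), a scaffold subunit, stand for the regulatory promoters with an ETS core, which is in capitals.
Psmc1: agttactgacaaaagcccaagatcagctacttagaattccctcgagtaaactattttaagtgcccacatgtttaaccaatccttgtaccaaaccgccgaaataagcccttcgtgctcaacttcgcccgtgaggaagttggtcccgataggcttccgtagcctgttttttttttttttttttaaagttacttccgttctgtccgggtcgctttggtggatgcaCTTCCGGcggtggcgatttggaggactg
Psmd2: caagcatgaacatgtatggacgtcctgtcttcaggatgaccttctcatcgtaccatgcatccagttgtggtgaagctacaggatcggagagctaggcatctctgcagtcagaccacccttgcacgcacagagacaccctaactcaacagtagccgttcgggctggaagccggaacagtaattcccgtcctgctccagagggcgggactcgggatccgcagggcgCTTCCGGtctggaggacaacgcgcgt
The ETS core was in 11 of the 40 member promoters (27.5%) and in 7.05% of the 27025 promoters of all genes. Those 11 were Psmc1, Psmc2, Psmc6, Psmd2, Psmd4, Psmd6, Psmd11, Psmd12, Psme3, Psme4 and Psmg1, and so held no core gene. GC boxes were in 55% of the member promoters against 32.9% of all, and the NRF1 element in 15% against 5.4%. CCAAT boxes were as frequent in members (35%) as in all promoters (34.5%). The NFE2L1 element was in 5 members (12.5%, against 10.1% of all): Psmb5, Psmb6, Psmc6, Psmd9 and Psmd12. The interferon element was in 7.5% (7.16% of all) and the STAT element in 5% (7.18% of all). The promoters of all genes include those of genes too low to be tested here, and they were not matched to the members for level. No test was made on these shares.

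The libraries differed moderately in depth, and those of TSPAN8-low lay below those of TSPAN8-high. The unit was FPKM, a fragment count divided by transcript length and by the library's mapped total, so the absolute depth is unknown. Relative to the first all ID4-EGFP+ library, depths read from the lowest values were 0.856 to 1.04. A library had 10734 to 11155 entries at 1 FPKM or more, and 11142 genes reached it in at least 3 of the 9 libraries and were tested. The 10 germ cell markers (such as Ddx4 and Zbtb16) summed to 2658 to 3169 FPKM in every library, but between the fractions single markers differed. TSPAN8-high exceeded TSPAN8-low in 3 of the 10 in limma, and in 6 with the replicate block described below (among them Ddx4 and Zbtb16), while Uchl1 was lower with the block. The median log2 fold change of the list was 0.57. Among all tested genes 3.41% were higher in TSPAN8-high without the block. With it 11.8% were higher and 7.34% lower. These shares are the background for all 3 marker lists. Of 11 Sertoli cell markers found, the sum was 95.3 to 237 FPKM in TSPAN8-high, 12.9 to 145 in TSPAN8-low and 20.9 to 111 in all ID4-EGFP+. The 6 Sertoli markers high enough to be tested (Clu, Cst12, Cst9, Aard, Rhox8 and Inha) all passed as higher in TSPAN8-high against TSPAN8-low with the block, and none without it, with a median log2 fold change of 1.71. Of the others, Sox9 and Amh were at or below 0.714 FPKM in every library. Of 9 leukocyte markers, the sum was 43.4 to 70.0, 16.7 to 36.4 and 31.1 to 31.6 FPKM in the same order, with Ptprc at or below 0.177. Cd68 and Fcer1g were the 2 of 3 tested leukocyte markers higher in TSPAN8-high with the block. Sertoli and leukocyte sums were above those of TSPAN8-low in the TSPAN8-high library of every replicate number, and the part of all 3 marker lists in the differences below was not tested.

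Proteasome transcripts were abundant in all 3 groups. Together the 48 genes made up 2.45 to 2.89% of the FPKM of a library. 46 of them reached the minimum for testing, and Psmb8 and Psmb11 did not. Over the 9 libraries the 46 had a median level of 328 FPKM, against 10.3 FPKM for all tested genes. The core genes had a median level of 885 FPKM, the regulatory genes one of 251 and the activator or assembly genes one of 232. The highest was Psmb2, at a mean of 1918 FPKM, which ranked 39 among all tested genes. The lowest tested members, Psmb9 (11.7) and Psme4 (11.8), still lay above the median gene. Across the 9 libraries a tested member's highest value was a median of 1.5 times its lowest, from 1.17 for Psmg2 to 2.30 for Psmd3, and the same ratio was 1.79 for all tested genes.

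**Figure D1:**
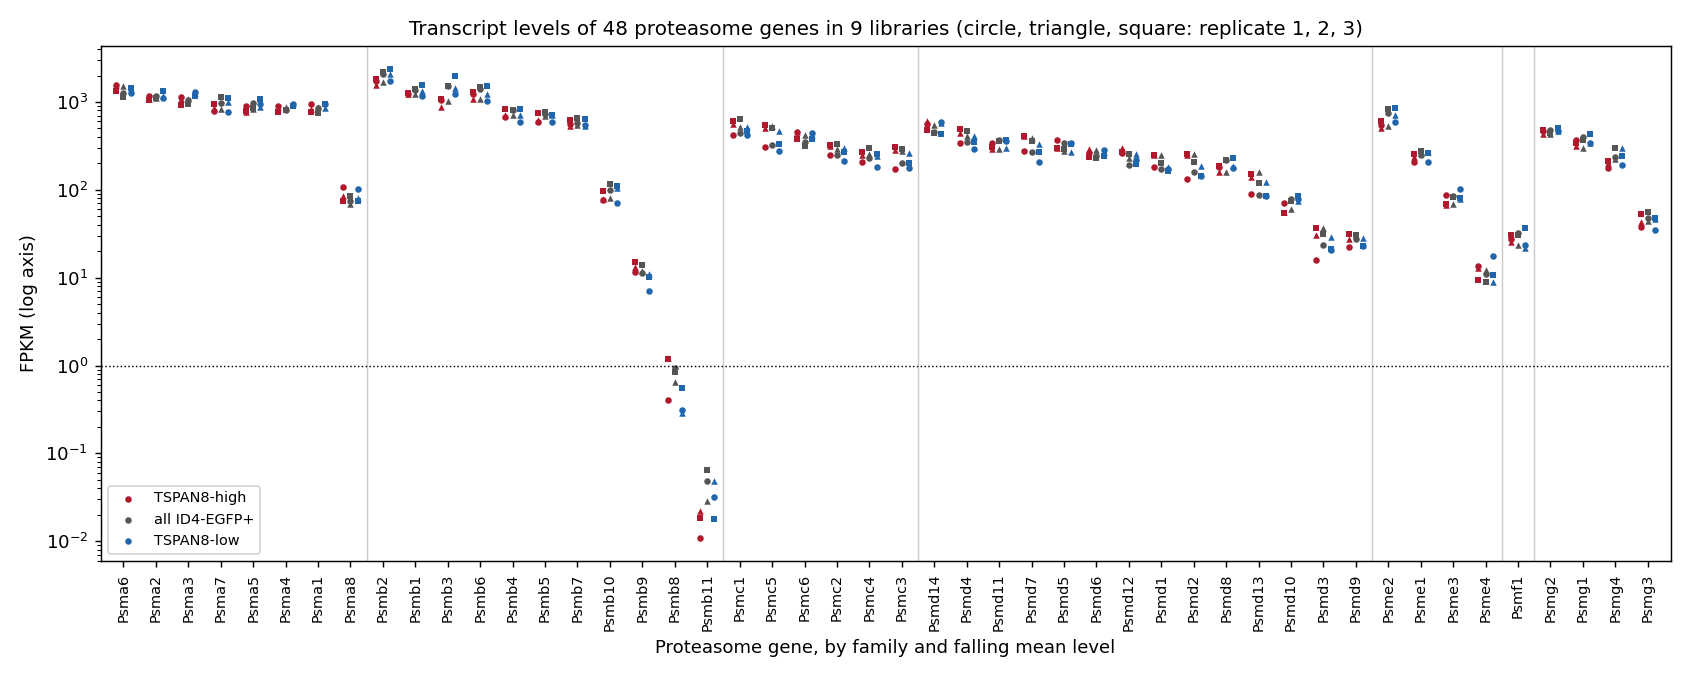
FPKM (log axis) of the 48 proteasome genes in each of the 9 libraries, by family and falling mean level, with the colour giving the group, the symbol the replicate number and the dotted line the minimum of 1 FPKM. Within a tested gene the highest point is at most 2.30 times the lowest, the untested Psmb8 and Psmb11 spread further, and Psmb9, Psmb8 and Psmb11 lie far below the other beta subunits and Psma8 below the other alpha subunits.

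Among the alpha subunits, all but Psma8 were present at similar levels, with means of 867 to 1391 FPKM. Psma6, the highest, was measured at 1558, 1579 and 1349 FPKM in replicates 1 to 3 of TSPAN8-high, at 1267, 1410.4 and 1425 in those of TSPAN8-low and at 1266, 1518 and 1145 in those of all ID4-EGFP+. Psma7 had levels of 769.7, 1000.3 and 1112 FPKM for the TSPAN8-low libraries, 981, 841 and 1143 for all ID4-EGFP+ and 783, 848 and 958 for the TSPAN8-high libraries (replicates 1 to 3 each). Its germ cell alternative Psma8 reached 108, 83.9 and 74.1 FPKM with high, 101, 81.7 and 75.5 with low TSPAN8 staining and 73.95, 68.6 and 84.04 among all ID4-EGFP+ cells (replicates 1 to 3). Psma8 thus made up 6.79 to 13.7% of the level of Psma7, and the highest shares, 13.7 and 13.1%, were those of replicate 1 of TSPAN8-high and of TSPAN8-low. Psma8 is known from meiotic cells, and its level in these cells before meiosis was higher than that of 85.0% of all tested genes. Psma3 stood at 1047, 1087 and 941 FPKM in the all ID4-EGFP+ libraries (replicates 1 to 3), at 1145, 1072 and 933 in the TSPAN8-high and at 1293, 1263 and 1176 in the TSPAN8-low libraries. Its TSPAN8-low values were all above those of the other groups, and Psma4 showed the same order.

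Of the beta subunits, the constitutive genes were high and the immune alternatives far lower. Psmb2, the highest of all members and a structural subunit, was measured at 1747, 1578 and 1843 FPKM in replicates 1 to 3 of TSPAN8-high, at 1712, 2072 and 2350.4 in those of TSPAN8-low and at 2086, 1703 and 2169 in those of all ID4-EGFP+. The catalytic Psmb5, which carries the chymotrypsin-like activity, had levels of 593, 709.6 and 718 FPKM for the TSPAN8-low libraries, 733, 699 and 773 for all ID4-EGFP+ and 597, 616 and 753 for the TSPAN8-high libraries (replicates 1 to 3 each). Psmb6, with the caspase-like activity, reached 1229, 1089.8 and 1283 FPKM with high, 1025, 1237 and 1529 with low TSPAN8 staining and 1417, 1091 and 1466 among all ID4-EGFP+ cells (replicates 1 to 3). For these 3 genes the ranges of the groups overlapped in every pair. The last catalytic gene, Psmb7 (trypsin-like activity), stood at 578, 546 and 653 FPKM in the all ID4-EGFP+ libraries (replicates 1 to 3), at 554, 537 and 619.7 in the TSPAN8-high and at 542, 529.7 and 638 in the TSPAN8-low libraries, and its groups also overlapped.

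The immune alternatives differed from each other in level. Psmb10, which replaces Psmb7, was measured at 77.4, 79.1 and 97.97 FPKM in replicates 1 to 3 of TSPAN8-high, at 70.03, 105 and 111 in those of TSPAN8-low and at 99.7, 81.5 and 116 in those of all ID4-EGFP+. It came to 12.9 to 19.8% of Psmb7. Psmb9, which replaces Psmb6, had levels of 7.07, 11.1 and 10.2 FPKM for the TSPAN8-low libraries, 11.4, 11.8 and 14.1 for all ID4-EGFP+ and 11.5, 13.1 and 15.02 for the TSPAN8-high libraries (replicates 1 to 3 each). It came to 0.666 to 1.202% of Psmb6. All 3 TSPAN8-low values of Psmb9 were below the lowest value of each other group. Psmb8, which replaces Psmb5, reached 0.402, 1.21 and 1.199 FPKM with high, 0.314, 0.285 and 0.555 with low TSPAN8 staining and 0.937, 0.650 and 0.835 among all ID4-EGFP+ cells (replicates 1 to 3), or 0.0401 to 0.197% of Psmb5. So Psmb10 transcripts were present at several times the level of Psmb9, and Psmb8 was close to absent. The thymus subunit Psmb11 was at most 0.0640 FPKM in any library. For Psmb8 the exact two-sided permutation test between TSPAN8-high and TSPAN8-low gave p = 0.2 (n = 3 each), where 0.1 is the smallest p possible.

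**Figure D2:**
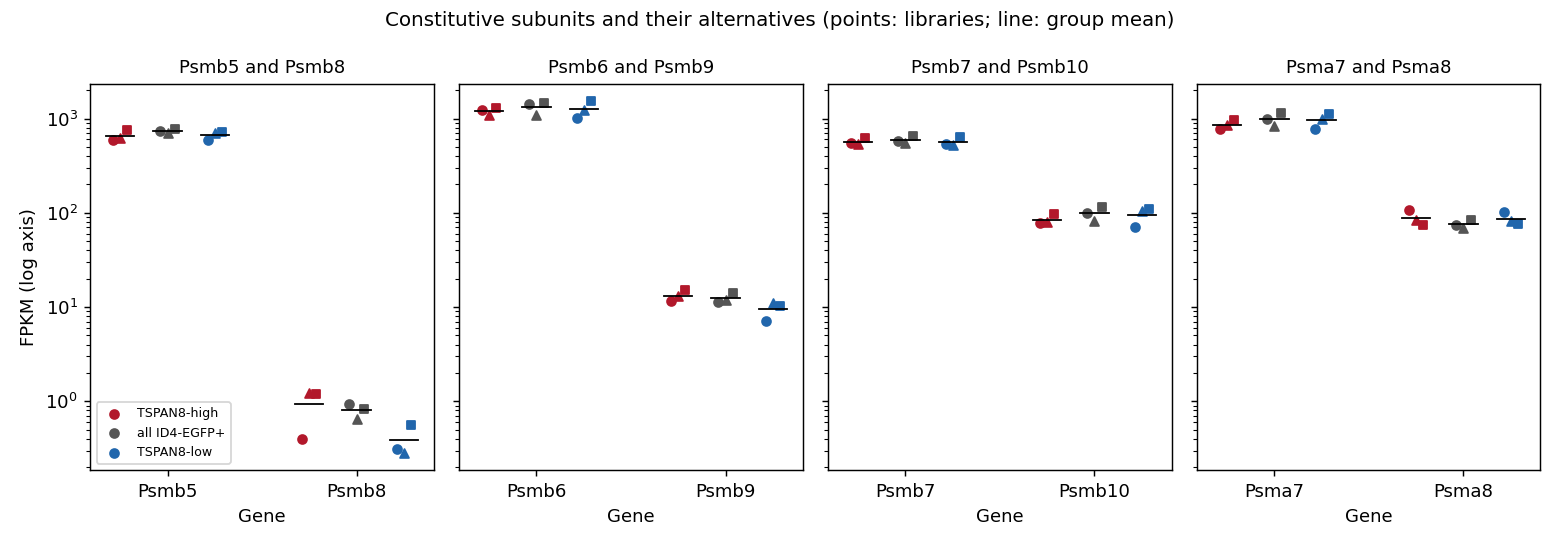
FPKM (log axis) of 3 catalytic beta subunit genes and of Psma7 beside the alternative that replaces each, with 1 point per library (colour for group, symbol for replicate number) and a line at the group mean. Psmb5, Psmb6 and Psmb7 lie between 529.7 and 1529 FPKM in all libraries, Psmb10 between 70.0 and 116, Psmb9 between 7.07 and 15.02 and Psmb8 at or below 1.21.

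The regulatory genes were lower than the core. Psmc1, the highest ATPase gene, stood at 448, 522 and 644 FPKM in the all ID4-EGFP+ libraries (replicates 1 to 3), at 423, 567 and 613 in the TSPAN8-high and at 426, 524 and 470.4 in the TSPAN8-low libraries. Psmc3, the lowest, was measured at 172, 287 and 306 FPKM in replicates 1 to 3 of TSPAN8-high, at 179, 262 and 203 in those of TSPAN8-low and at 201, 279 and 288 in those of all ID4-EGFP+. Psmc5, an ATPase with the largest difference between the fractions in its family, had levels of 279.8, 471 and 332 FPKM for the TSPAN8-low libraries, 325, 534 and 501 for all ID4-EGFP+ and 308, 499 and 541 for the TSPAN8-high libraries (replicates 1 to 3 each). For these ATPase genes replicate 1 was the lowest library of each of the 3 groups, and the ranges of TSPAN8-high and TSPAN8-low overlapped. Psmd14, which removes ubiquitin chains from the substrate and was the highest Psmd gene, reached 558, 603 and 484 FPKM with high, 599, 570.4 and 430.2 with low TSPAN8 staining and 459, 548 and 438 among all ID4-EGFP+ cells (replicates 1 to 3). Psmd9, an assembly chaperone and the lowest, stood at 27.7, 29.7 and 30.7 FPKM in the all ID4-EGFP+ libraries (replicates 1 to 3), at 22.3, 27.2 and 31.7 in the TSPAN8-high and at 23.1, 28.5 and 22.96 in the TSPAN8-low libraries. The lid subunit Psmd3 stood at a mean of 27.4 FPKM, near Psmd9, although other lid subunits such as Psmd7 (324) and Psmd12 (242) were far higher.

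In every library the median core gene was higher than the median regulatory gene. The ratio of these medians was 4.07, 3.17 and 2.93 in all ID4-EGFP+ replicates 1 to 3, 4.49, 3.58 and 4.34 in TSPAN8-low, and 3.56, 2.89 and 2.94 in TSPAN8-high. Thus all 3 TSPAN8-low ratios were above all 3 TSPAN8-high ratios, by as little as 3.58 against 3.56, and all ID4-EGFP+ overlapped with both. The ratio was given no test, since it is a score over the members.

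Activator, inhibitor and assembly genes spanned a wide range. Psme1, a subunit of the interferon-induced cap, was measured at 209.7, 235 and 254 FPKM in replicates 1 to 3 of TSPAN8-high, at 208, 273 and 261 in those of TSPAN8-low and at 249, 263 and 277 in those of all ID4-EGFP+. Its partner Psme2 had levels of 586, 718 and 856 FPKM for the TSPAN8-low libraries, 744, 538 and 828 for all ID4-EGFP+ and 552, 512 and 614 for the TSPAN8-high libraries (replicates 1 to 3 each). Psme2 was 2.05 to 3.27 times Psme1, although both are subunits of the same ring. The nuclear cap Psme3 reached 87.7, 66.9 and 69.6 FPKM with high, 101, 77.7 and 81.4 with low TSPAN8 staining and 85.9, 69.7 and 83.9 among all ID4-EGFP+ cells (replicates 1 to 3). Psme4, the cap known from spermatids, stood at 10.96, 12.3 and 9.03 FPKM in the all ID4-EGFP+ libraries (replicates 1 to 3), at 13.6, 12.8 and 9.53 in the TSPAN8-high and at 17.7, 9.03 and 10.8 in the TSPAN8-low libraries. Its TSPAN8-low value of replicate 1 was the highest of the 9. Psmf1, the inhibitor, was measured at 27.7, 25.3 and 30.4 FPKM in replicates 1 to 3 of TSPAN8-high, at 23.3, 21.9 and 36.3 in those of TSPAN8-low and at 32.6, 23.8 and 30.7 in those of all ID4-EGFP+. Among assembly factors Psmg2, the steadiest member, had levels of 470.0, 469 and 503 FPKM for the TSPAN8-low libraries, 478, 429.7 and 446 for all ID4-EGFP+ and 462, 435 and 473 for the TSPAN8-high libraries (replicates 1 to 3 each), and Psmg3 reached 37.99, 42.6 and 52.7 FPKM with high, 34.8, 46.2 and 47.6 with low TSPAN8 staining and 48.4, 43.6 and 56.3 among all ID4-EGFP+ cells (replicates 1 to 3). Psmg4, an assembly factor as well, stood at 236, 227 and 299 FPKM in the all ID4-EGFP+ libraries (replicates 1 to 3), at 178, 202 and 215 in the TSPAN8-high and at 191, 297 and 243 in the TSPAN8-low libraries, and all 3 TSPAN8-high values were below those of all ID4-EGFP+. Psme2 and several beta subunits have near copies elsewhere in the mouse genome between which reads may be split, so their levels are uncertain.

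The first comparison asked whether proteasome genes differ between ID4-EGFP+ cells with strong and with weak TSPAN8 staining. None of the 46 tested members passed (limma on log2(FPKM + 1), two-sided, Benjamini-Hochberg adjusted p under 0.05), while 5.56% of all tested genes did. At an unadjusted p under 0.05 there were 3 members (Psmb3, Psmb9 and Psmd10), against 22% of all tested genes. The 3 groups share replicate numbers, and libraries of the same number deviated together, so a second limma fit took the number as a block. With that block 4 members passed (8.7%), against 19.1% of all tested genes (11.8% higher and 7.34% lower), and 12 members reached an unadjusted p under 0.05, against 34.3%. So the share of members was below the background in both fits. Psmb9 and Psmd7 were higher in TSPAN8-high, and Psmb3 and Psmd10 were lower. Values of the 2 fractions did not overlap in 2 members that were higher in TSPAN8-high (Psmb9 and Psmd12) and 4 that were lower (Psma3, Psma4, Psmb3 and Psmd10), and in 15.9% and 9.71% of all tested genes.

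Psmb3, a structural beta subunit, was measured at 1065, 868 and 1069.6 FPKM in replicates 1 to 3 of TSPAN8-high, at 1233, 1459 and 1966 in those of TSPAN8-low and at 1528, 1024 and 1538 in those of all ID4-EGFP+. The TSPAN8-high value was the lower at every replicate number, and the ranges did not overlap. The means were 1001 ± 115 and 1553 ± 375 FPKM (SD, n = 3 each), a log2 fold change of -0.61 (SE 0.21, 95% interval -1.07 to -0.15). The limma adjusted p was 0.115, and 0.0172 with the block. Psmb3 had the largest estimate of the 46 tested members in either direction. With the block the call was lost without replicate 2 or 3 of TSPAN8-high or of TSPAN8-low, with adjusted p up to 0.102.

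Psmd10 encodes gankyrin, a chaperone that helps build the ATPase ring and leaves before the proteasome is complete. It had levels of 78.7, 73.7 and 85.7 FPKM for the TSPAN8-low libraries, 79.05, 60.3 and 75.2 for all ID4-EGFP+ and 71.3, 55.7 and 54.6 for the TSPAN8-high libraries (replicates 1 to 3 each). TSPAN8-high lay below TSPAN8-low in each number and without overlap, at 60.5 ± 9.32 against 79.4 ± 6.00 FPKM (SD, n = 3 each). The log2 fold change was -0.39 (SE 0.16), with a limma adjusted p of 0.173, and of 0.0384 with the block. That call held in 2 of the 9 fits with the block that left out 1 library, those without replicate 2 of all ID4-EGFP+ and without replicate 1 of TSPAN8-low, and the adjusted p over the 9 ran from 0.0171 to 0.209.

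Psmb9 was higher in TSPAN8-high at every replicate number, with the FPKM values given above. Means were 12.4 ± 1.43 FPKM for all ID4-EGFP+, 13.2 ± 1.77 for TSPAN8-high and 9.46 ± 2.12 for TSPAN8-low (SD, n = 3 each). Between the fractions the log2 fold change was 0.46 (SE 0.18, 95% interval 0.06 to 0.85), with a limma adjusted p of 0.162, and of 0.0297 with the block. As a share of its constitutive counterpart Psmb6, Psmb9 was 0.935, 1.202 and 1.17% in the TSPAN8-high libraries and 0.690, 0.898 and 0.666% in the TSPAN8-low ones, again without overlap. The leukocyte marker sum was 43.4 to 70.0 FPKM for TSPAN8-high and 16.7 to 36.4 for TSPAN8-low, and its part in the Psmb9 difference was not tested. In bulk libraries more cells of a type and more RNA per cell cannot be told apart. With the block the Psmb9 call was lost under each of 3 other scalings (adjusted p 0.0632 to 0.0768) and without any 1 TSPAN8-high library or replicate 1 or 3 of TSPAN8-low (up to 0.109).

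Psmd7, a lid subunit that pairs with the deubiquitinase Psmd14, reached 279, 409 and 410.0 FPKM with high, 206, 329 and 269.9 with low TSPAN8 staining and 270.2, 385 and 356 among all ID4-EGFP+ cells (replicates 1 to 3). TSPAN8-high was above TSPAN8-low at each number, but the ranges overlapped, since replicate 1 of TSPAN8-high (279 FPKM) lay below replicate 2 of TSPAN8-low (329). The means were 366 ± 75.5 and 268 ± 61.7 FPKM (SD, n = 3 each). Its log2 fold change was 0.45 (SE 0.22 without and 0.10 with the block), with a limma adjusted p of 0.248, and of 0.0126 with the block. The call with the block was lost without replicate 1 or 3 of TSPAN8-high or replicate 3 of TSPAN8-low (adjusted p up to 0.0793).

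The estimates between TSPAN8-high and TSPAN8-low were also summarised by class. Among regulatory genes 16 of 20 estimates were above 0, with a median log2 fold change of 0.16, and all 6 ATPase genes were among them, from 0.05 for Psmc6 to 0.31 for Psmc5. Core genes had 12 of 17 estimates below 0 (43.4% of all tested genes) and a median of -0.11, and activator or assembly genes had 7 of 9 below 0 and a median of -0.08. Of all tested genes 56.6% were above 0, with a median of 0.05. These class medians moved with the scaling and with single libraries. The core median was -0.01 with quantile normalization or the authors' normalized values and -0.20 with a common median, and ran from -0.03 without TSPAN8-low replicate 3 to -0.17 without TSPAN8-low replicate 1. The regulatory median was 0.07 with a common median, and ran from 0.10 without TSPAN8-low replicate 1 to 0.31 without TSPAN8-high replicate 1. Among regulatory genes besides Psmd7, the largest positive estimates in limma were those of the scaffold subunits Psmd2 and Psmd1 and of Psmd13. Psmd2 had 0.38 (limma adjusted p = 0.407, 0.0978 with the block). Psmd1 had 0.37 (limma adjusted p = 0.238, 0.0549 with the block). Psmd13 also had 0.37 (limma adjusted p = 0.407, 0.0866 with the block). The median 95% interval of a member reached 0.37 to each side of its estimate, and 0.26 with the block. These intervals are not adjusted for the number of genes, so they do not give the smallest difference that could pass. Larger estimates also failed, such as that of Psmb3 (-0.61) without the block and that of Psmd2 (0.38) with it.

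**Figure D3:**
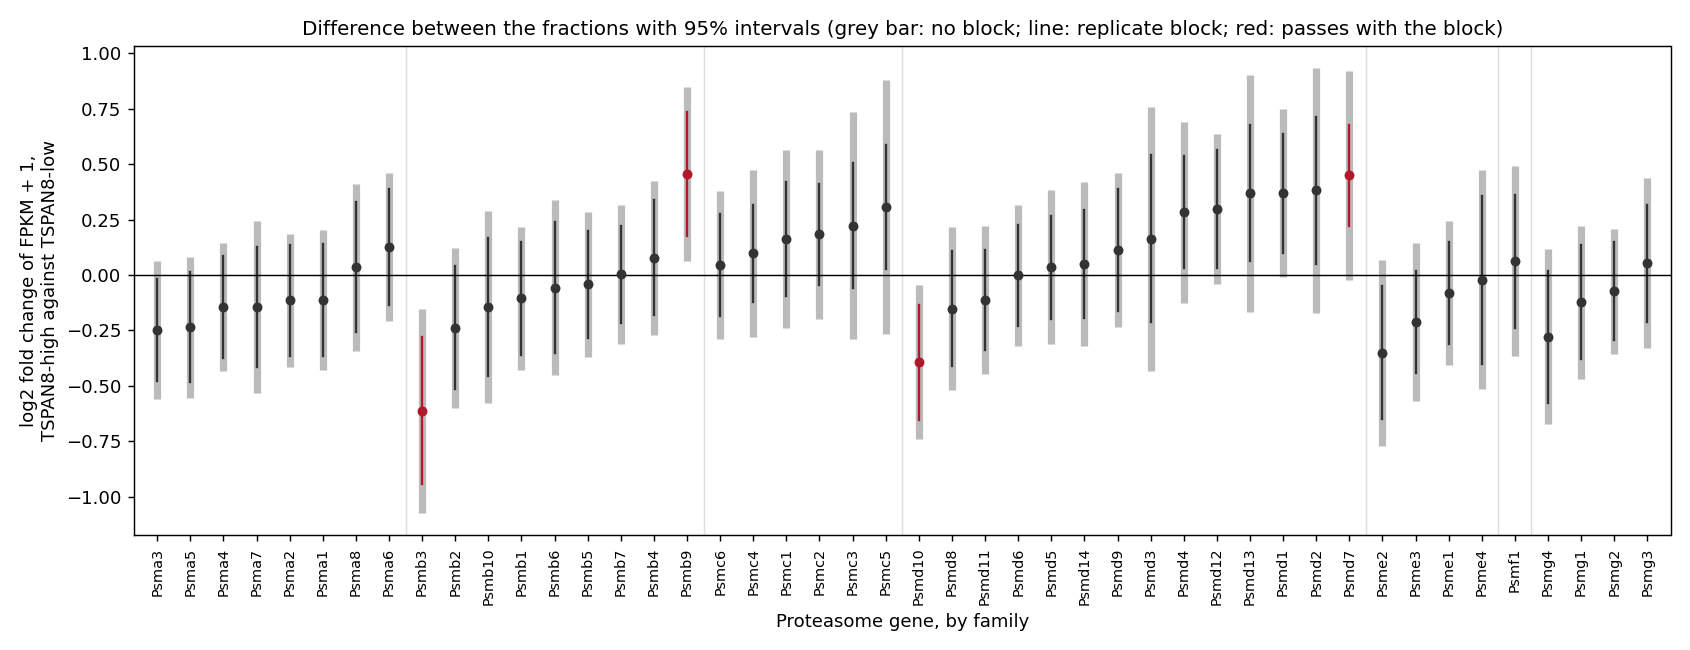
Difference between TSPAN8-high and TSPAN8-low as log2 fold change of FPKM + 1 for the 46 tested members by family, as points with the 95% interval of the fit without (grey bar) and with the replicate block (line). Red marks the 4 members that pass with the block: Psmb3 and Psmd10 below 0, Psmb9 and Psmd7 above.

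Both fractions were also compared with all ID4-EGFP+ cells, and no member passed in either. These comparisons share the 3 all ID4-EGFP+ libraries with each other and the fractions' libraries with the first, so they are not independent. For TSPAN8-high no member passed in limma, against 0.144% of all tested genes, and none with the block, against 3.09%. At an unadjusted p under 0.05 there were 0 members, against 9.74% of all tested genes, and 5 with the block, against 18.7%. The smallest adjusted p with the block was 0.158, for Psmb3, whose log2 fold change was -0.43 (in the fit with the block, SE 0.15 and 95% interval -0.76 to -0.10, and without it, SE 0.21 and -0.89 to 0.03). Among tested members, Psmg4 was lower in TSPAN8-high without overlap (198 ± 19.0 against 254 ± 39.6 FPKM, SD, n = 3 each). Psmd12, a lid subunit, was higher without overlap (275 ± 20.5 against 227 ± 31.4 FPKM). Of all tested genes, 8.34% were lower and 6.79% higher without overlap. Medians were -0.06 for core genes (0.004 after quantile normalization), 0.01 for regulatory genes and -0.10 for activator or assembly genes. The regulatory median ran from -0.09 without TSPAN8-high replicate 3 to 0.17 without TSPAN8-high replicate 1.

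For TSPAN8-low against all ID4-EGFP+ no member passed in limma, as did 0% of all tested genes, and none with the block, against 0.0449%. The counts at an unadjusted p under 0.05 were again 0, against 8.17% of all tested genes, and 5 with the block, against 19%. Psmd7 had the smallest adjusted p with the block (0.139) and a log2 fold change of -0.34 (in the fit with the block, SE 0.10 and 95% interval -0.57 to -0.11, and without it, SE 0.22 and -0.81 to 0.13). Among tested members, TSPAN8-low was without overlap lower for Psmb9 and higher for Psma3 and Psma4, beside 10.8% and 3.44% of all tested genes. The untested Psmb8 was also lower without overlap, at values under 1 FPKM in both groups. Its exact two-sided permutation test gave p = 0.1 (n = 3 each), the smallest p possible. Psma3 stood at 1244 ± 60.6 FPKM in TSPAN8-low and at 1025 ± 75.4 in all ID4-EGFP+ (SD, n = 3 each). The regulatory median was -0.19, with 13 of 20 estimates below 0, beside 62.4% of all tested genes. The core median was 0.04 (-0.03 with the authors' normalized values) and that of activator or assembly genes 0.04. Without TSPAN8-low replicate 1 the regulatory median was -0.09 and the core median 0.12, and without TSPAN8-low replicate 3 the core median was -0.07.

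Some regulatory genes also differed between replicate numbers, in a fit over the 3 groups. An F test of the block in the same limma fit, added after seeing the data, passed 8 of 20 regulatory genes (40%), 0 of 17 core genes and 0 of 9 activator or assembly genes, beside 11.9% of all tested genes. The numbers were taken as pairs from deviations in this same table, so these counts describe how the members compare with all genes. The 8 were the ATPase genes Psmc2, Psmc3, Psmc4 and Psmc5, the scaffold Psmd2 and the lid genes Psmd3, Psmd7 and Psmd13. Psmd2 stood at 161, 256 and 205 FPKM in the all ID4-EGFP+ libraries (replicates 1 to 3), at 132, 247 and 258 in the TSPAN8-high and at 142, 187 and 143 in the TSPAN8-low libraries. Psmd3 was measured at 15.97, 30.9 and 36.7 FPKM in replicates 1 to 3 of TSPAN8-high, at 20.8, 29.4 and 20.95 in those of TSPAN8-low and at 23.5, 36.8 and 31.3 in those of all ID4-EGFP+. In both genes, as in Psmc5 and Psmd7, replicate 1 was the lowest of its group in each of the 3 groups, by a small margin in TSPAN8-low for Psmd2 and Psmd3. Psmc5 had an adjusted p of 0.0179 in this F test and Psmd7 one of 0.0180.

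The mean deviation of the replicate 1 libraries from their group means had a median of -0.21 log2 units over the 20 regulatory genes, 13 of which were below 0, and of -0.05 over the 17 core genes. In replicate 2 these medians were 0.11 and -0.05, and in replicate 3 they were 0.07 and 0.13. The replicate 1 deviation fell with the GC content of the transcript. Spearman's rho across genes was -0.75 for regulatory genes (n = 20), -0.74 for core genes (n = 17) and -0.38 for all tested genes with a GC value (n = 10439). For replicate 2 rho was 0.29, -0.30 and -0.13 in the same order, and for replicate 3 it was 0.75, 0.82 and 0.57. The deviations of a gene cancel over the replicate numbers, so opposite signs between numbers are partly built in and are no separate observation. These genes are not independent and share the libraries, and the part of GC content in the differences between replicate numbers was not tested. The median GC content was 49.6% for regulatory and 49.2% for core transcripts. Between the fractions rho of the log2 fold change with GC content was 0.38 for regulatory genes (n = 20), 0.10 for core genes (n = 17), 0.13 for all members (n = 46) and 0.06 for all tested genes with a GC value. With transcript length, rho of this fold change was 0.09, 0.07, 0.36 and 0.11 in the same order. The median length was 1887 bases for regulatory and 1183 for core transcripts. The part of GC content or of length in the difference between the fractions was not tested either.

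The count of 8 regulatory genes depended on single libraries. It was 0 without TSPAN8-high replicate 1, when 88 of all tested genes passed in place of 1324. Without replicate 1 of all ID4-EGFP+ it was 1, without replicate 3 of all ID4-EGFP+ or replicate 2 of TSPAN8-high 2, and without TSPAN8-low replicate 2 it was 3. Psmb3 was the core gene that passed without TSPAN8-low replicate 1.

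**Figure D4:**
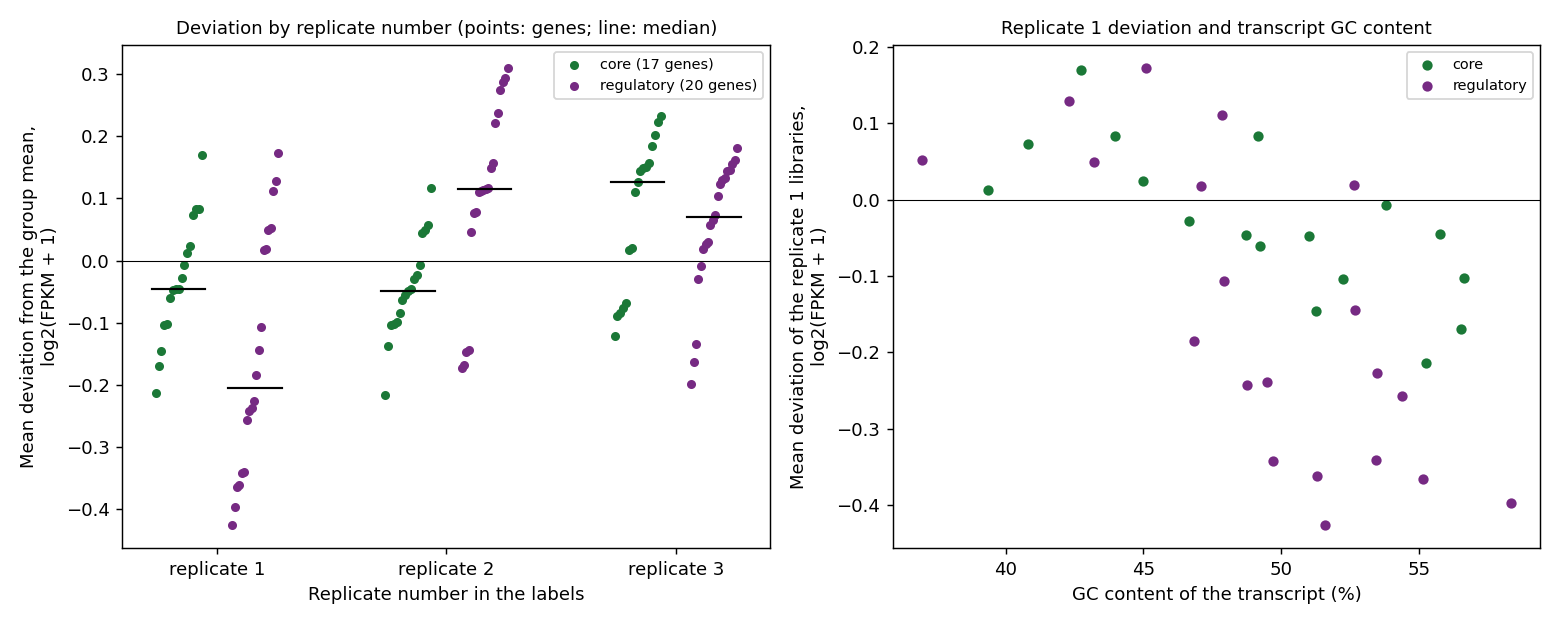
Left, mean deviation from the group mean (log2 of FPKM + 1) of each core and regulatory gene in the libraries of replicate 1, 2 and 3, with a line at the median; right, the replicate 1 deviation against transcript GC content (%). Regulatory genes reach further below 0 in replicate 1 than core genes, with medians of -0.21 and -0.05, and in both classes genes of higher GC content lie lower.

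Genes that work with the proteasome were read from 4 lists. Of 21 partners (substrate shuttles, deubiquitinases, assembly and segregase factors) none passed between the fractions in limma, and 3 were higher in TSPAN8-high with the block, near the share of all tested genes (5.56% in either direction without the block, 11.8% higher with it). Among these were the shuttle factors Ddi2 (7.29 ± 0.789 FPKM for TSPAN8-high and 4.86 ± 0.952 for TSPAN8-low, SD, n = 3 each, adjusted p = 0.122, 0.0255 with the block) and Ubqln1 (55.8 ± 5.52 and 43.7 ± 2.31, adjusted p = 0.178, 0.0405 with the block). Both are carriers of ubiquitin-tagged proteins to the regulatory particle. The related Ubqln2 stood lower in TSPAN8-high (2.42 ± 0.397 against 3.18 ± 0.439 FPKM) and did not pass. The partners' median log2 fold change was 0.07, beside 0.05 for all tested genes.

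Of 15 genes of ubiquitin and its activation none passed in limma, and 2 were higher in TSPAN8-high with the block (11.8% of all tested genes were), among them the activating enzyme Uba1. Uba1 stood at 30.5 ± 2.06 FPKM for TSPAN8-high and 23.7 ± 3.18 for TSPAN8-low (SD, n = 3 each), with an adjusted p of 0.176, and of 0.0365 with the block. The conjugating enzymes Ube2l3 and Ube2d1 had estimates of -0.27 and -0.33 and passed neither fit. This list had a median of -0.09.

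None of 9 transcription factors of proteasome genes passed in either fit. Nfe2l1, named for its role as the factor that raises proteasome genes when the protease is short, was low in every library, between 5.10 and 6.71 FPKM. Those with the smallest p were Keap1, the repressor of the related Nfe2l2 (1.87 ± 0.125 FPKM for TSPAN8-high and 2.38 ± 0.131 for TSPAN8-low, SD, n = 3 each) and the CCAAT-binding subunits Nfya (2.32 ± 0.209 and 1.79 ± 0.353), Nfyb and Nfyc.

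Of 20 interferon and antigen presentation genes, 5 of which are proteasome members, 15 were tested. Without the block 1 of the 15 passed, and with it 2 were higher and 1 lower in TSPAN8-high. These counts are near the shares of all tested genes (5.56% in either direction without the block, 11.8% higher and 7.34% lower with it). Ifngr1, the interferon gamma receptor chain that binds the ligand, was higher in TSPAN8-high in both fits (49.5 ± 2.21 against 32.5 ± 1.92 FPKM, SD, n = 3 each, limma adjusted p = 0.0221, 0.00272 with the block). With the block Psmb9 was higher as well, and Ifngr2, the other receptor chain and a gene named after its values were seen, was lower (7.27 ± 1.40 against 10.0 ± 2.62 FPKM, adjusted p = 0.0460 with the block). The factor Irf9 had an estimate of 0.39 and passed neither fit. Tap1, named because it shares the printed stretch with Psmb9, was at most 0.0743 FPKM in any library, whereas Psmb9 was at least 7.07. For the 4 lists, no gene passed in either comparison with all ID4-EGFP+ without the block, and with it Ifngr1 passed in TSPAN8-high.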

How the data were processed

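Per the labels' protocols, cDNA was made from sorted cells with SMART-Seq v4 chemistry (poly(A)-primed, no strand information), and Nextera XT libraries were sequenced as pairs. The authors deposited FPKM per gene and library. The submitters' processing notes name mouse genome build mm9 and the programs Bowtie2 2.2.3.0, TopHat2 2.0.12, FastQC and Cufflinks, with the gene models and Cufflinks release not given in the sources used here. A second deposited table, of the authors' normalized values, was read as signal and entered 1 set of alternatives.

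Of 23813 entries, 768 with 262 repeated symbols were left out, and 27 held dates instead of symbols. Genes at 1 FPKM or more in at least 3 of 9 libraries (11142) entered limma 3.58.1 (R 4.3.3; lmFit, contrasts, eBayes with trend) on log2(FPKM + 1), in 1 fit over the 3 groups with no block and no further scaling, and with Benjamini-Hochberg adjustment over all tested genes. Log2 fold changes on this scale understate those of low genes. The procedure was first tested on simulated data. A single gene below the minimum was compared by an exact two-sided permutation test. Deviations from the group mean correlated across genes between same-numbered libraries (0.26 to 0.48 in all 9 pairs) and mostly less between others (-0.46 to 0.28 in 18 pairs). The ranges overlapped at their ends. Deviations cancel within a group, so part of the contrast with other numbers is built in. From this pattern in the data, not from the labels, the number was taken to pair the samples. Alternatives were pseudocounts of 0.1 and 0.5, no filter, a stricter filter of 5 FPKM, 3 other scalings, the replicate block alone and with each scaling, only the 2 groups compared, and leaving out each library.

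Transcript length and GC content came from the longest coding transcript of GENCODE M21, a later annotation, matched by symbol for 10439 tested genes and all 48 members. Promoters were matched by symbol. Named members were those passing any fit, the catalytic and immune subunits, Psma7, Psma8, the Psme genes and Psmf1, the highest and lowest of each family and that with the largest difference between the fractions; of other lists, up to 4 genes with the smallest p, of which some are not reported here. The members, lists and rules were chosen with earlier results of these data known. Python 3.11.15 and matplotlib 3.10.9 drew the plots.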

Additional observations from a re-analysis of the deposited data

How the results depend on the processing

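In no comparison did a proteasome gene pass without the replicate block, under any pseudocount, filter or scaling, with only the 2 groups compared, or without any 1 library. With the replicate block, TSPAN8-high against TSPAN8-low gave 2 members higher and 2 lower. With the block and a common median there were 1 (Psmd7) and 2, with the block and quantile normalization 3 (Psmd1, Psmd4 and Psmd7) and 2, and with the block and the authors' normalized values 2 (Psmd4 and Psmd7) and 2. Psmb3 and Psmd10 were the lower members each time. When 1 library was left out with the block, the counts ran from 0 to 4 higher and from 0 to 4 lower. Both were 4 without TSPAN8-low replicate 1, with Psmd1, Psmd2, Psmd7 and Psmd13 higher and Psmb2, Psmb3, Psmd10 and Psme2 lower. For TSPAN8-high against all ID4-EGFP+ with the block they were 0 higher and 0 to 1 lower (Psmg4 without all ID4-EGFP+ replicate 2, Psmb3 without TSPAN8-low replicate 1), and for TSPAN8-low against all ID4-EGFP+ the block added none. Scaling moved the split of all called genes between the fractions from 380 higher and 239 lower to 228 and 362 with a common median, 250 and 300 with quantile normalization and 223 and 307 with the authors' values. The median log2 fold change between the fractions ran over these scalings from -0.20 to -0.01 for core and from 0.07 to 0.19 for regulatory genes. Of regulatory genes, 8 differed between replicate numbers, but 5 at a pseudocount of 0.1, 5 with the authors' values, and 0 without a filter, when 0 of all genes passed; without 1 library the count ran from 0 to 7, and that of core genes from 0 to 1. The cause of these shifts was not tested. The absolute depth is unknown, which limits most the reading of Psmb8, Psmb11 and other values under 1 FPKM.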
